A study of Mus musculus with 8 samples.

Results

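The ETS family is a group of transcription factors that share a DNA-binding domain, and 10 of its genes were followed here among the 23278 genes of the deposited tables. They were given as a list of names (Etv1, Etv3, Etv4, Etv5, Etv6, Ets1, Ets2, Elk1, Elk3 and Gabpa), with no measured value in the rule. The list was nevertheless chosen with earlier results of these data known, and Etv1 is known from published work on these samples. The samples came from FVB/N mice at postnatal day 1, in whose lumbar spinal cord ventral horn motor neurons and white matter glia were cut out by laser-capture microdissection for RNA-seq. SMA mice carried the genotype SMN2+/+;SMNΔ7+/+;Smn-/-, that is, they lacked mouse Smn and carried the human SMN2 gene and a human SMN transgene without exon 7, a model of spinal muscular atrophy, whereas WT mice were labelled wild type with no transgene named. The groups were SMA motor neurons, WT motor neurons, SMA white matter and WT white matter, with 2 libraries in each of the 4. How many animals went into a library, and whether both regions of one replicate number came from one animal, is not given in the sources used here, so that p-values measure the spread between these libraries.

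ETS proteins bind DNA through a winged helix-turn-helix domain that reads a GGAA core, and many of them are switched on by phosphorylation through the ERK kinase pathway downstream of growth factor receptors. Of the PEA3 group (Etv1, Etv4 and Etv5), Etv1 and Etv4 are known in the mouse spinal cord for marking pools of motor neurons that serve particular muscles. Etv4 is induced in such pools by GDNF from the limb, and Etv1 is also needed by proprioceptive sensory neurons to reach their motor neuron targets.

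Promoter windows of the members were read from RefSeq (GRCm38.p6) to show what the core looks like in its genomic setting, and 8 of the 10 members had an entry, with 10 windows between them. The windows of Etv1 are shown because this gene had the largest difference between SMA and WT motor neurons. That of Gabpa is shown because it had the largest difference between regions in WT on the log2 scale used below. By the ratio of means Elk3 differed more (3.34-fold, against 3.12-fold for Gabpa). Each window shown runs from 250 bases before to 50 bases after a transcript start on the plus strand. Capitals mark GGAAGT or CCGGAAG on either strand. The coordinates are chr12:38779832-38780131 and chr12:38783461-38783760 for Etv1 and chr16:84834874-84835173 for Gabpa.
Etv1, first start: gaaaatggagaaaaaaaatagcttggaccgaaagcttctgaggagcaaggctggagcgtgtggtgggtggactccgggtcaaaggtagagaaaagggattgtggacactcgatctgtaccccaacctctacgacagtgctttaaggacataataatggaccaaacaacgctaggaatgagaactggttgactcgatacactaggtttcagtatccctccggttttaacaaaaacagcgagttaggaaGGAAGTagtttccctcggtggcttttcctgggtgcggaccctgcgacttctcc
Etv1, second start: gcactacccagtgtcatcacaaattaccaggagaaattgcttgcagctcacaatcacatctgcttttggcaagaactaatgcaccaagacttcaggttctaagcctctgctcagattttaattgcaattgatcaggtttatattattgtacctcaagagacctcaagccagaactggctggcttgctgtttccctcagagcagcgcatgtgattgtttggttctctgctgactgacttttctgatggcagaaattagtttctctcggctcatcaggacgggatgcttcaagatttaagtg
Gabpa: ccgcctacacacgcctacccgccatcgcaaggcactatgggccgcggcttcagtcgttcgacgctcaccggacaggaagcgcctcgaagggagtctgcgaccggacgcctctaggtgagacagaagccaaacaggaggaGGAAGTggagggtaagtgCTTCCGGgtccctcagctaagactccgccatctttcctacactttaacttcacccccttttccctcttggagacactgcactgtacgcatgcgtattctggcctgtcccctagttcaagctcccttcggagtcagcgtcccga

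The bare core GGAA was found in 9 of the 10 member windows and in 96.0% of the 32851 mouse promoter windows of the same length. The longer form GGAAGT, which contains the core, was found in 4 of 10 member windows against 23.8% of all windows. CCGGAAG, the form with the flank preferred by Gabpa and many other ETS proteins, was found in 1 of 10 member windows, that of Gabpa, against 8.9% of all. These matches describe letters in a window and say nothing of binding, and the expression data were aligned to another build, mm9.

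All 10 members reached 1 RPKM (reads per kilobase of a gene, relative to the size of the library) in every library and entered the tests, each resting on 422 to 13957 reads per library. The RPKM denominators corresponded to 77.5 to 102.8 M reads per library. Between 11539 and 12796 genes reached 1 RPKM, and 19.4 to 33.4% of all RPKM fell on Rn45s, the ribosomal RNA precursor. The second SMA motor neuron library lay at the edge of both ranges, with the fewest genes and the largest Rn45s share, and 9 of the 10 members were lower in it than in SMA motor neuron replicate 1. In each group Xist, transcribed from the inactive X chromosome, lay at 12.6 RPKM or more in replicate 1 and at 0.0581 RPKM or less in replicate 2, whereas the Y-linked gene Ddx3y had 0 RPKM in every replicate 1 and between 0.628 and 6.37 RPKM in the replicate 2 libraries. Smn1, the deleted gene, was listed at 0 in all 4 SMA libraries, against 6.82 and 2.93 RPKM in WT motor neurons and 5.30 and 14.3 RPKM in WT white matter. Defining markers followed the labelled cell types: Chat, the acetylcholine-synthesizing enzyme, lay between 11.8 and 25.0 RPKM in the motor neuron libraries and at 0.905 RPKM or less in white matter, and Mbp, myelin basic protein, lay between 17.0 and 66.6 RPKM in motor neurons and between 840.2 and 2506 RPKM in white matter. Differences below were computed on log2(RPKM + 1), where the added 1 shrinks the change of low genes, are given ± SE, and were tested with limma across 13948 genes with Benjamini-Hochberg adjustment and a threshold of 0.05.

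**Figure D1:**
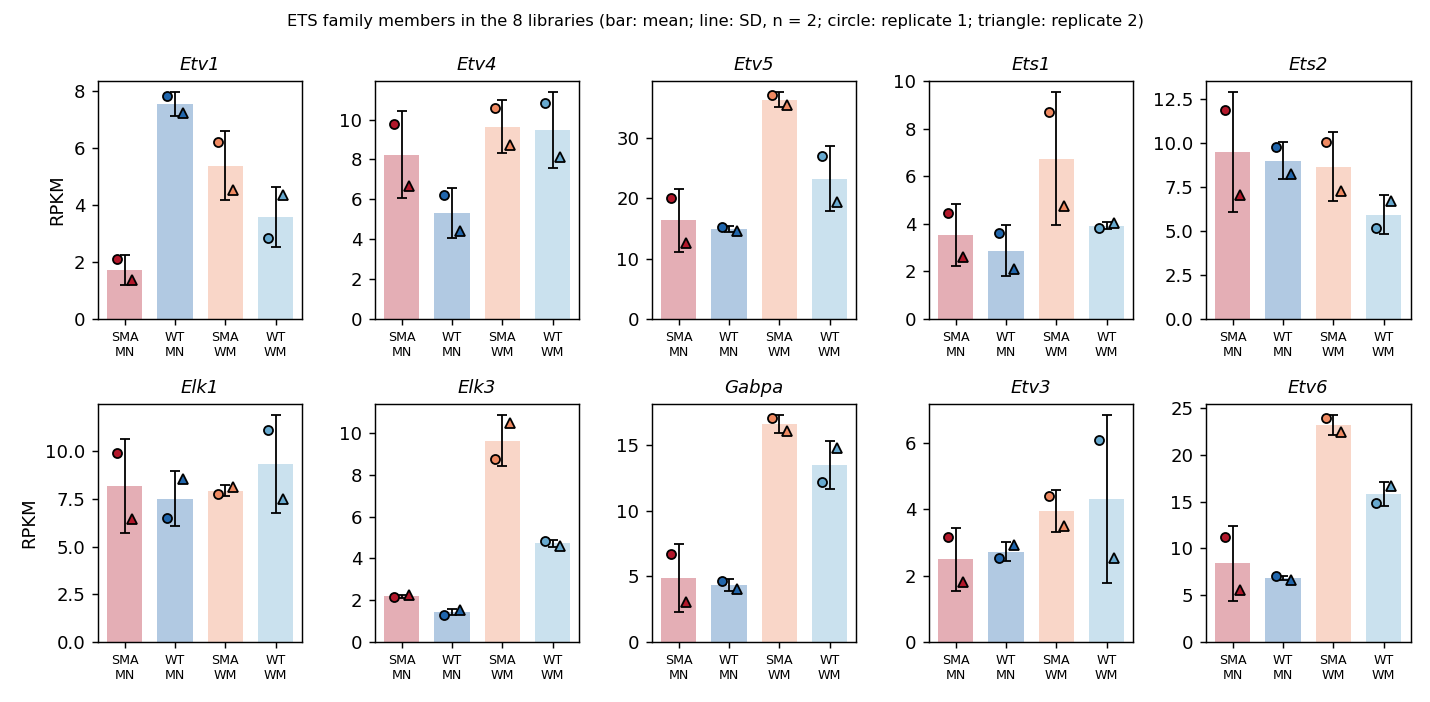
RPKM of the 10 ETS members (y axes, one panel a gene, each starting at 0) in SMA and WT motor neurons (MN) and SMA and WT white matter (WM); bars are means, lines SD with n = 2, circles replicate 1 and triangles replicate 2. Etv1 is lowest in SMA motor neurons (1.72 RPKM on average), whereas Elk3, Gabpa and Etv6 are lower in motor neurons than in white matter in both genotypes.

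Etv1 was the member with the largest difference between SMA and WT motor neurons. It had 2.09 and 1.35 RPKM in SMA motor neurons (647 and 422 reads), against 7.83 and 7.25 RPKM in WT motor neurons (2703 and 2129 reads). Both SMA libraries thus lay far below both WT libraries, and the gap was wider than the spread within either pair. The means were 1.72 ± 0.522 and 7.54 ± 0.415 RPKM (SD, n = 2 each), which is 4.38-fold lower in SMA. On the log2(RPKM + 1) scale the difference was -1.66 ± 0.35 (95% confidence interval -2.45 to -0.88), with an unadjusted limma p of 8.67e-04, the rank 19 p among all genes, and an adjusted p of 0.556. It therefore did not pass the threshold after adjustment. Because Etv1 was already known from published work on these samples, that p and rank are no independent support for it. The difference stayed between -2.11 and -1.47 over 17 alternatives, among them leaving out each library in turn, with limma adjusted p between 0.0576 and 1. The library that stands apart, SMA motor neuron replicate 2, held the lower of the SMA values, and without it the difference was -1.47.

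In white matter Etv1 lay the other way. It had 6.23 and 4.52 RPKM in SMA white matter (2284 and 1761 reads), against 2.84 and 4.33 RPKM in WT white matter (936 and 1589 reads). Both SMA libraries lay above both WT libraries, but SMA replicate 2 lay above WT replicate 2 by less than the distance between the WT libraries. The log2 difference was 0.48 ± 0.35 (limma adjusted p = 0.772), and 0.21 with median-of-ratios scaling, which removes the overall shift described below. Ordered by mean RPKM, Etv1 stood highest in WT motor neurons (7.54), followed by SMA white matter (5.37 ± 1.21), WT white matter (3.59 ± 1.06) and SMA motor neurons (1.72). SMA white matter and WT white matter, neighbours in this order, did not differ beyond their spread.

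**Figure D2:**
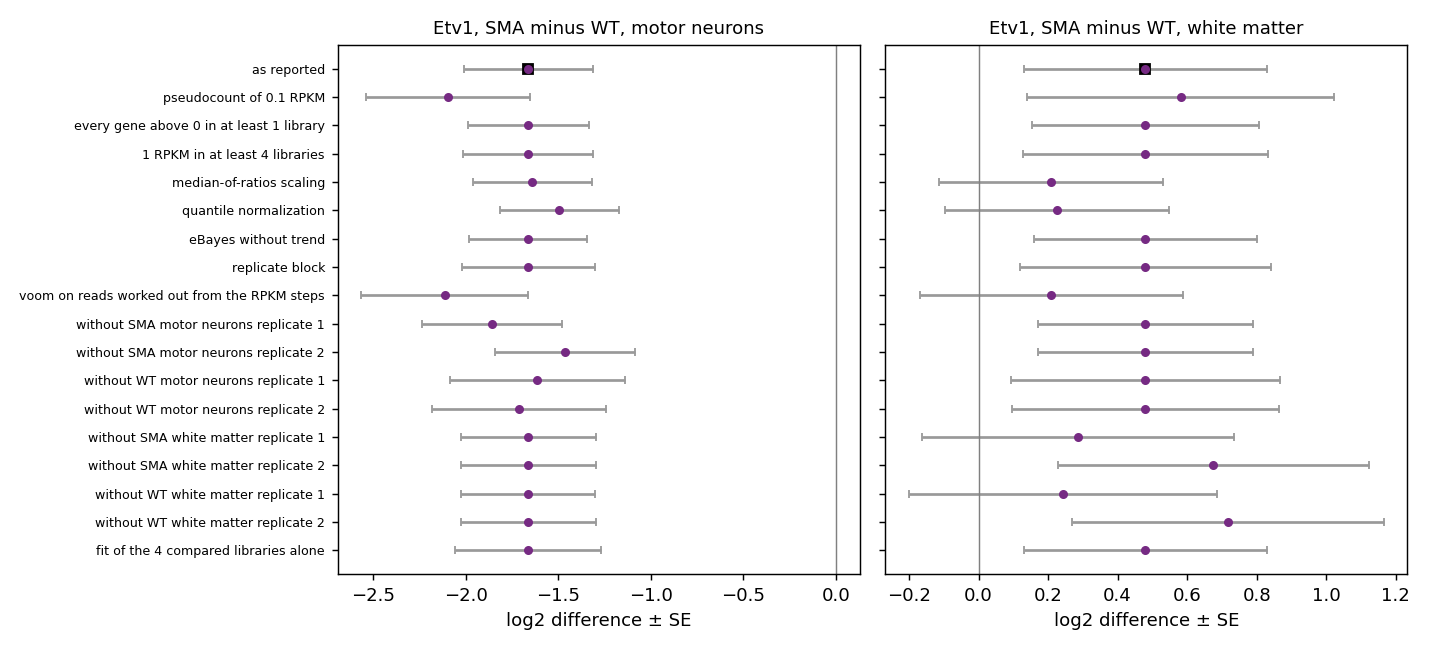
SMA minus WT difference of Etv1 in log2 units (x axes, points with SE) in motor neurons and in white matter, as reported (square) and under each of 17 alternatives (rows). The motor neuron difference lies between -2.11 and -1.47 throughout, and the white matter difference between 0.21 and 0.72.

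The difference between these opposite shifts was tested as the interaction of genotype and region. For Etv1 it was -2.14 ± 0.49 (95% confidence interval -3.25 to -1.04), with an unadjusted limma p of 0.00163, again rank 19 among all genes, and an adjusted p of 0.883. Etv1 was the 1 member of 10 whose libraries shifted in opposite directions in the 2 regions with no overlap in either, as did 6.19% of all genes tested. In the interaction 0 of 10 members passed by limma, or by limma's voom on reads worked out from the RPKM values, as did 0% of all genes by limma. The members with an unadjusted p under 0.05 numbered 1 (Etv1), against 4.97% of all genes.

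The other PEA3 genes did not share this pattern in motor neurons. Etv4 had 9.79 and 6.68 RPKM in SMA motor neurons, against 6.19 and 4.41 RPKM in WT motor neurons. Both SMA libraries lay above both WT libraries, by a margin narrower than the spread within either pair (log2 0.55 ± 0.33, limma adjusted p = 1). In white matter Etv4 had 10.6 and 8.71 RPKM in SMA and 10.8 and 8.11 RPKM in WT, which overlap. Etv5, the most abundant member per length, had 20.1 and 12.6 RPKM in SMA motor neurons, against 15.3 and 14.5 RPKM in WT motor neurons, with the SMA libraries on either side of the WT libraries. In white matter Etv5 had 37.3 and 35.5 RPKM in SMA, against 27.1 and 19.4 RPKM in WT, without overlap (log2 0.64 ± 0.30, limma adjusted p = 0.741).

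Ets1 and Ets2, founding members of the family and direct ERK substrates, overlapped between SMA and WT motor neurons. Ets1 had 4.45 and 2.59 RPKM in SMA motor neurons and 3.61 and 2.11 RPKM in WT motor neurons. Ets2 had 11.9 and 7.04 RPKM in SMA motor neurons and 9.74 and 8.22 RPKM in WT motor neurons. In white matter both lay above WT without overlap: Ets1 had 8.71 and 4.76 RPKM in SMA and 3.81 and 4.02 RPKM in WT, a difference carried largely by SMA replicate 1 (log2 0.61 ± 0.40, limma adjusted p = 0.762). Ets2 had 10.02 and 7.24 RPKM in SMA white matter, against 5.13 and 6.70 RPKM in WT white matter (log2 0.47 ± 0.35, limma adjusted p = 0.773).

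Elk1 and Elk3 are ternary complex factors, which bind DNA together with serum response factor, and Elk3 acts as a repressor until ERK phosphorylates it. Elk3 was low in motor neurons, with 2.13 and 2.24 RPKM in SMA and 1.30 and 1.51 RPKM in WT, and both SMA libraries lay above both WT libraries (log2 0.40 ± 0.31, limma adjusted p = 1). In white matter Elk3 had 8.76 and 10.5 RPKM in SMA, against 4.82 and 4.60 RPKM in WT, so that the SMA mean was 2.04-fold higher. That difference (log2 0.89 ± 0.31, 95% confidence interval 0.18 to 1.60) had an unadjusted limma p of 0.0187 and an adjusted p of 0.727, and was 0.60 with median-of-ratios scaling. Elk1, on the X chromosome, had 9.92 and 6.44 RPKM in SMA motor neurons and 6.49 and 8.55 RPKM in WT motor neurons. It had 7.74 and 8.14 RPKM in SMA white matter and 11.1 and 7.50 RPKM in WT white matter, and overlapped in both regions.

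Gabpa is the DNA-binding subunit of GA-binding protein, an activator of nuclear genes for mitochondrial proteins. It had 6.72 and 3.01 RPKM in SMA motor neurons and 4.64 and 4.01 RPKM in WT motor neurons, with the WT libraries between the SMA ones. In white matter it had 17.1 and 16.1 RPKM in SMA, against 12.2 and 14.8 RPKM in WT, without overlap on the deposited scale (log2 0.28 ± 0.36, limma adjusted p = 0.872), and the difference was -0.03 with median-of-ratios scaling.

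Etv3 and Etv6 act as transcriptional repressors. Etv6 had 11.2 and 5.56 RPKM in SMA motor neurons and 7.0 and 6.64 RPKM in WT motor neurons, which overlap. It had 23.9 and 22.4 RPKM in SMA white matter, against 14.9 and 16.7 RPKM in WT white matter, without overlap (log2 0.53 ± 0.34, limma adjusted p = 0.759). Etv3 had 3.17 and 1.82 RPKM in SMA motor neurons and 2.52 and 2.92 RPKM in WT motor neurons. In white matter it had 4.40 and 3.51 RPKM in SMA and 6.10 and 2.52 RPKM in WT, so that it overlapped in both regions and varied most between the WT white matter libraries.

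**Figure D3:**
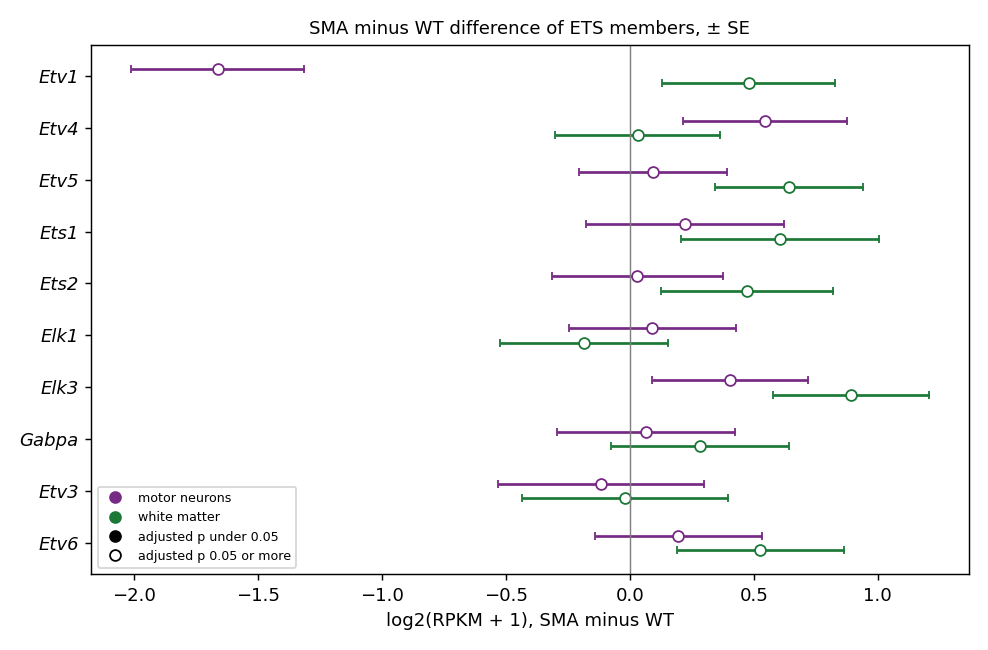
SMA minus WT difference of each ETS member on the log2(RPKM + 1) scale (x axis, points with SE) in motor neurons (purple) and white matter (green); open points did not pass the limma threshold after adjustment. Etv1 in motor neurons stands at -1.66, apart from the other members, which lie between -0.19 and 0.89 in the 2 regions.

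Counted together, 0 of 10 members passed the threshold between SMA and WT motor neurons by limma or by voom, as did 0% of all genes by limma. The members with an unadjusted p under 0.05 numbered 1 (Etv1), against 4.37% of all genes. Both SMA libraries lay above both WT libraries for 2 members (Etv4 and Elk3), against 12.7% of all genes, and below them for 1 (Etv1), against 15.5%. The median difference of the members was 0.09, beside -0.05 for all genes. Without SMA motor neuron replicate 1, 123 genes passed by limma, and 0 of them were members. With that library left out, the median difference of all genes also moved, to -0.18. In that fit 6 members with small positive differences (Etv5, Etv6, Ets1, Ets2, Elk1 and Gabpa) had negative ones, between -0.41 and -0.08.

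In white matter 0 of 10 members passed by limma or by voom, as did 0% of all genes by limma, and 1 (Elk3) had an unadjusted p under 0.05, against 6.31% of all genes. Both SMA libraries lay above both WT libraries for 7 members (Etv1, Etv5, Etv6, Ets1, Ets2, Elk3 and Gabpa), but so did 39.7% of all genes, and 0 members lay below without overlap, against 4.17% of all genes. The median difference was 0.48 for the members and 0.27 for all genes tested. That overall shift went away with median-of-ratios scaling, where the median of all genes was 0.0015, and Etv4 and Gabpa then lay below WT (-0.27 and -0.03). Averaged over both regions, 0 members passed by limma or by voom, as did 0% of all genes by limma. The members with an unadjusted p under 0.05 then numbered 2, Etv1 (-0.59 ± 0.25) and Elk3 (0.65 ± 0.22), against 5.99% of all genes.

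Marker genes of other cell types moved along with genotype. In motor neuron captures the 8 motor neuron markers summed to 566 and 574 RPKM in SMA, against 700.3 and 715 RPKM in WT, and 0 of 8 had a higher mean in SMA. The 10 microglia markers summed to 94.2 and 82.3 RPKM in SMA, against 30.5 and 34.0 RPKM in WT, with 8 of 10 higher in SMA by their means. The 10 spinal interneuron markers summed to 210 and 362 RPKM in SMA, against 192 and 196 RPKM in WT, with 9 of 10 higher by their means. Astrocyte sums overlapped, at 829 and 685 RPKM in SMA and 751 and 691 RPKM in WT. Yet 7 of the 8 astrocyte markers had a higher mean in SMA, 3 of them without overlap, and 0 lay below WT without overlap. In these 4 lists no marker was at 0 in any motor neuron library. The 8 myelinating oligodendrocyte markers summed to 113.5 and 79.1 RPKM in SMA, against 64.1 and 40.4 RPKM in WT, with 7 of 8 higher by their means and Mog at 0 in SMA replicate 1. In bulk captures, fewer cells of a type and less RNA per cell cannot be told apart, and the part of these shifts in the Etv1, Etv4 and Elk3 differences was not tested.

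In white matter the summed markers of most cell types were higher in SMA as well. Microglia markers summed to 362 and 422 RPKM in SMA, against 271 and 282 RPKM in WT, with 8 of 10 higher by their means. Astrocyte markers summed to 1526 and 1299.7 RPKM in SMA, against 1034 and 1179 RPKM in WT. Endothelial markers summed to 49.7 and 33.0 RPKM in SMA, against 23.5 and 19.2 RPKM in WT, with 10 of 10 higher by their means and Slco1a4 at 0 in replicate 1 of each genotype. Fibroblast and meningeal markers summed to 359 and 290 RPKM in SMA, against 105 and 158 RPKM in WT. Of these markers 8 of 8 were higher in both SMA libraries than in both WT libraries, against 39.7% of all genes tested. All these sums are on the deposited scale, where 80% of all genes tested had a positive SMA minus WT difference in white matter. Median-of-ratios scaling, which removes that overall shift, was not applied to them. The part of the marker shifts in the white matter values of Elk3, Ets1, Etv5 and the other members was not tested.

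**Figure D4:**
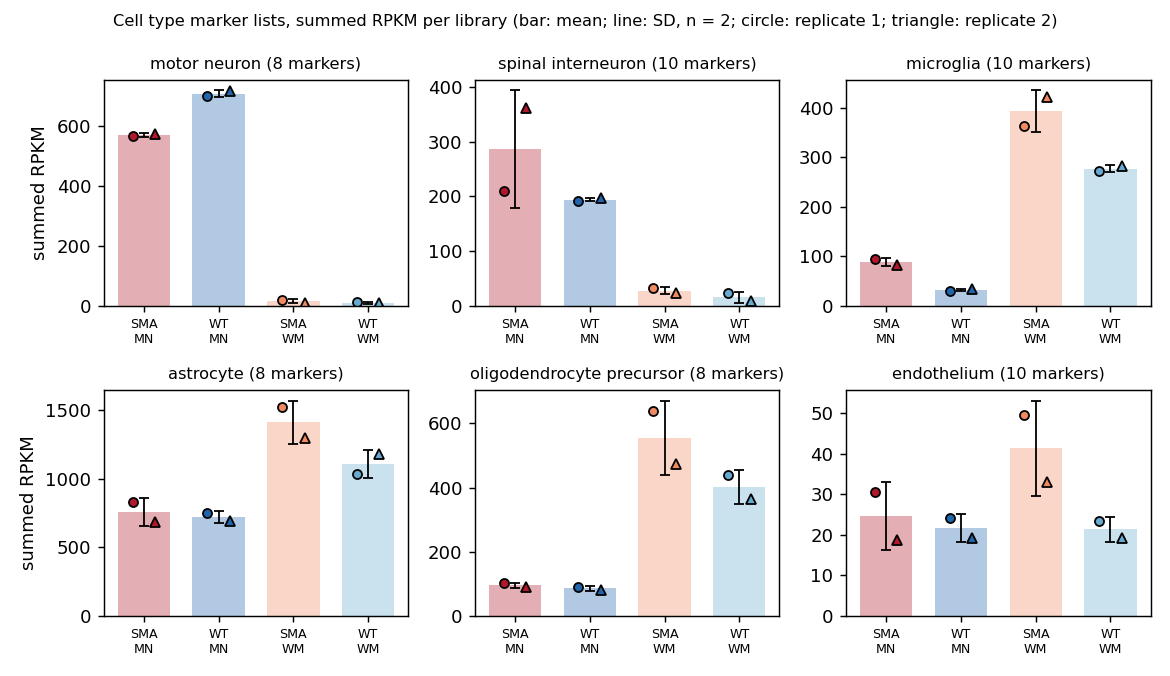
Summed RPKM of 6 marker lists (y axes, each starting at 0) in SMA and WT motor neurons (MN) and SMA and WT white matter (WM); bars are means, lines SD with n = 2, circles replicate 1 and triangles replicate 2. Motor neuron marker sums separate the regions and are lower in SMA than in WT motor neurons. Microglia marker sums are higher in SMA in both regions, with 8 of 10 markers higher by their means in each.

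The clearest differences among the members were between regions. In WT, 3 of 10 members were lower in motor neurons than in white matter after adjustment (limma), against 9.85% of all genes, and 0 were higher, against 18.6% of all genes, with 1 (Etv1) higher at an unadjusted p under 0.05. Of all genes called in WT, 65.4% were higher in motor neurons on the deposited scale, against 51.7% with quantile normalization and 40.9% with voom. By voom 0 of 10 members were higher in WT motor neurons, and 5 were lower. Voom called 4408 genes, most of them lower in motor neurons, so the limma shares above are not the background of these counts. Gabpa had 4.64 and 4.01 RPKM in WT motor neurons, against 12.2 and 14.8 RPKM in WT white matter (log2 -1.44 ± 0.36, limma adjusted p = 0.0149). Elk3 had 1.30 and 1.51 RPKM in WT motor neurons, against 4.82 and 4.60 RPKM in WT white matter (log2 -1.25 ± 0.31, limma adjusted p = 0.0159). In both genes each motor neuron library lay well below each white matter library.

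Etv6 had 7.0 and 6.64 RPKM in WT motor neurons, against 14.9 and 16.7 RPKM in WT white matter (log2 -1.10 ± 0.34, limma adjusted p = 0.0352). Each of these 3 calls was lost when any of the 4 WT libraries was left out, while the differences stayed between -1.57 and -1.02. Leaving out a WT library leaves 1 in its group and also lowered the number of calls over all genes. Etv6 was also lost without either SMA white matter library and with every gene above 0 tested (limma adjusted p = 0.0576). Etv4 and Etv5 were lower in motor neurons without overlap but did not pass (log2 -0.73 ± 0.33 and -0.59 ± 0.30, limma adjusted p = 0.129 and 0.173). Both passed with quantile normalization (0.0339 and 0.0194) and with voom (0.0241 and 0.0110), and Etv4 passed with median-of-ratios scaling (0.0449).

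Etv1 stood apart from these genes in WT, with 7.83 and 7.25 RPKM in motor neurons, against 2.84 and 4.33 RPKM in white matter. Its mean was 2.10-fold higher in motor neurons, with no overlap, but the difference did not pass (log2 0.91 ± 0.35, limma adjusted p = 0.0785). It passed without SMA motor neuron replicate 1 (0.0405) or replicate 2 (0.0402) and in a fit of the 4 WT libraries alone (0.0430), and the range over 17 alternatives was 0.0402 to 0.326. Ets2 was the other member with a higher mean in WT motor neurons (8.98 ± 1.07, against 5.91 ± 1.11 RPKM in WT white matter; SD, n = 2 each), and did not pass (limma adjusted p = 0.282).

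In SMA, 5 of 10 members were lower in motor neurons than in white matter after adjustment (limma), against 17.2% of all genes, and 0 were higher by limma, against 13.6%. Elk3 had 2.13 and 2.24 RPKM in SMA motor neurons, against 8.76 and 10.5 RPKM in SMA white matter (log2 -1.73 ± 0.31, limma adjusted p = 0.00347), and passed under all 17 alternatives. Gabpa had 6.72 and 3.01 RPKM in SMA motor neurons, against 17.1 and 16.1 RPKM in SMA white matter (log2 -1.66 ± 0.36, limma adjusted p = 0.00784). It was lost without SMA white matter replicate 1 (0.0564). Etv6 (log2 -1.43 ± 0.34, limma adjusted p = 0.0114) was lost without either SMA white matter library (0.0713 and 0.0580) and in a fit of the 4 SMA libraries alone (0.0575).

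Etv5 had 20.1 and 12.6 RPKM in SMA motor neurons, against 37.3 and 35.5 RPKM in SMA white matter (log2 -1.14 ± 0.30, limma adjusted p = 0.0186). Etv1 had 2.09 and 1.35 RPKM in SMA motor neurons, against 6.23 and 4.52 RPKM in SMA white matter (log2 -1.23 ± 0.35, limma adjusted p = 0.0255). Its order between the regions was thus the reverse of that in WT, a difference whose test is the interaction given above. Both calls were lost without SMA motor neuron replicate 2 (limma adjusted p = 0.0543 for Etv5 and 0.0635 for Etv1) and without SMA white matter replicate 1 (0.0943 and 0.152) or replicate 2 (0.0788 and 0.0654). They were also lost in a fit of the 4 SMA libraries alone (0.0665 and 0.0934), and Etv1 was lost with quantile normalization (0.0547).

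**Figure D5:**
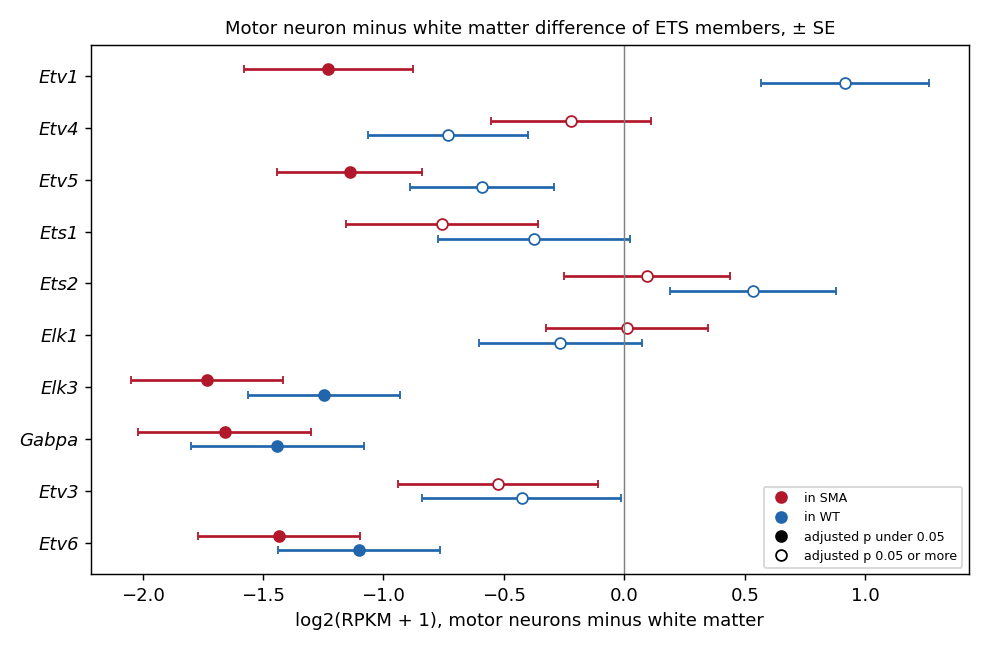
Motor neuron minus white matter difference of each ETS member on the log2(RPKM + 1) scale (x axis, points with SE) in SMA (red) and in WT (blue); filled points passed the limma threshold after adjustment. Elk3, Gabpa and Etv6 are filled on the negative side in both genotypes, and Etv1 lies at -1.23 in SMA and at 0.91 in WT.

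The 3 members lower in motor neurons in both genotypes were Etv6, Elk3 and Gabpa, against 8.50% of all genes tested. The median regional difference of the members was -0.95 in SMA, beside -0.24 for all genes, and -0.51 in WT, beside 0.08 for all genes. With median-of-ratios scaling the medians of all genes were -0.07 in SMA and -0.05 in WT. Ets1, Ets2, Elk1, Etv3 and Etv4 passed in neither genotype on the deposited scale.

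The rest of the family was measured less often. Of 17 other ETS gene symbols listed, 16 were in the tables and 8 passed the filter on low values. The symbol not found, Spi1, is another name of Sfpi1, which was in the tables. Ehf, Etv2, Fev and Spic were listed at 0 in every library. Of the 8 tested, 6 were lower in motor neurons in SMA (limma adjusted p under 0.05), against 17.2% of all genes, and 5 in WT, against 9.85%. Among them 0 were higher in either genotype, against 13.6% of all genes in SMA and 18.6% in WT. Sfpi1, which encodes the macrophage and microglia factor PU.1, had 0.597 and 0.801 RPKM in SMA motor neurons, against 11.5 and 10.1 RPKM in SMA white matter (log2 -2.80 ± 0.40, limma adjusted p = 0.00109), and 1.60 and 0.368 RPKM in WT motor neurons, against 9.23 and 5.93 RPKM in WT white matter (log2 -2.16 ± 0.40, limma adjusted p = 0.00349). Sfpi1 thus had no overlap between the regions in either genotype. Of its motor neuron libraries only WT replicate 1 reached 1 RPKM. It therefore passed the filter only through white matter, where it is high, and it is among the calls counted above.

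Erf, a repressor controlled by ERK, had means of 4.53 RPKM in SMA motor neurons, against 24.9 RPKM in SMA white matter, and of 4.70 RPKM in WT motor neurons, against 21.0 RPKM in WT white matter (limma adjusted p = 0.00567 in SMA and 0.0111 in WT). Elf1, Elk4 (also a ternary complex factor) and Fli1 were also lower in motor neurons in both genotypes, with log2 differences of -2.26, -1.40 and -1.58 in SMA and -1.40, -1.59 and -1.11 in WT. Elf2 passed in SMA (-1.93, limma adjusted p = 0.0013) and had -0.72 in WT (0.087). Elf4 and Erg, an endothelial factor, passed in neither. Between SMA and WT, 0 of the 8 passed by limma in motor neurons or in white matter, with 0 and 1 (Elf2) at an unadjusted p under 0.05, against 4.37% and 6.31% of all genes. Their median differences were 0.05 in motor neurons and 0.50 in white matter, beside -0.05 and 0.27 for all genes.

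Partners of ETS proteins and the kinases above them were measured from a list of 20 genes, of which 19 were in the tables and tested. In the WT regions 3 were higher and 2 lower in motor neurons (limma), with 14 not passing. With 18.6% of all genes higher and 9.85% lower, these counts are near the background and are no result about the list. Mkl1 and Mkl2, coactivators of serum response factor, were higher (log2 1.91 ± 0.31 and 1.61 ± 0.30, limma adjusted p = 0.00178 and 0.00349), as was Map2k2, a kinase that activates ERK (1.20 ± 0.26, limma adjusted p = 0.00744). Gabpb2, a partner subunit of Gabpa, was lower (-1.37 ± 0.35, limma adjusted p = 0.0162), as was the GTPase gene Nras (-1.16 ± 0.33, limma adjusted p = 0.0278). Gabpb2 had 0.444 and 0.163 RPKM in WT motor neurons, against 2.08 and 2.63 RPKM in WT white matter. It lay below 1 RPKM in every motor neuron library and passed the filter only through white matter. Gabpb1, the other Gabpa partner, had 3.20 ± 0.0189 RPKM in WT motor neurons and 3.03 ± 0.542 RPKM in WT white matter (SD, n = 2 each; log2 0.07 ± 0.33, limma adjusted p = 0.903). Between SMA and WT, 0 of 19 passed by limma in motor neurons, with 0 at an unadjusted p under 0.05, against 4.37% of all genes, and 0 in white matter, with 2, against 6.31%. The median differences were -0.09 in motor neurons and 0.41 in white matter, beside -0.05 and 0.27 for all genes.

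Genes that ERK signalling induces, including its feedback inhibitors and the PEA3 genes themselves, formed a list of 20, of which 18 were tested. In the WT regions 4 were higher in motor neurons and 1 lower (limma). With 18.6% of all genes higher and 9.85% lower, these counts too are near the background. Dusp4, an ERK phosphatase, Ier3, an immediate early gene, and Spred2, an inhibitor of the Ras pathway, were among the higher ones (log2 1.34 ± 0.33, 1.83 ± 0.47 and 1.05 ± 0.30, limma adjusted p = 0.0137, 0.0169 and 0.028). The cell cycle gene Ccnd1 was lower (-2.0 ± 0.29, limma adjusted p = 9.57e-04). Between SMA and WT motor neurons 0 of 18 passed by limma, and 4 had an unadjusted p under 0.05, Etv1 among them, against 4.37% of all genes.

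The other 3 of these lay above WT, and their naming rests on that p, seen in these data. Dusp4 had 11.3 and 15.5 RPKM in SMA motor neurons, against 5.27 and 7.03 RPKM in WT motor neurons (log2 1.01 ± 0.33, limma adjusted p = 0.888). Egr1, an immediate early transcription factor, had 10.5 and 14.95 RPKM in SMA motor neurons, against 7.18 and 4.80 RPKM in WT motor neurons (log2 0.97 ± 0.34, limma adjusted p = 0.983). Phlda1, a gene induced by growth factor signals, had 30.4 and 19.7 RPKM in SMA motor neurons, against 13.8 and 10.7 RPKM in WT motor neurons (log2 0.95 ± 0.37, limma adjusted p = 1). All 3 were higher in both SMA libraries than in both WT libraries, as were 12.7% of all genes. Genes picked by that p are likely to show this, so it is no further support. Il17rd, Ccnd1, Spred3 and Etv4 also lay above WT without overlap, but none of them had an unadjusted limma p under 0.05. Other genes of the list lay below. Dusp6, an ERK phosphatase, had 6.09 and 6.26 RPKM in SMA motor neurons, against 6.82 and 9.46 RPKM in WT motor neurons (log2 -0.33 ± 0.30, limma adjusted p = 1). Spry4, an inhibitor of receptor tyrosine kinase signalling, had 12.3 and 13.0 RPKM in SMA motor neurons, against 16.3 and 17.9 RPKM in WT motor neurons (log2 -0.41 ± 0.27, limma adjusted p = 1). Both lay below WT without overlap, as did Myc, Etv1 and 15.5% of all genes. The other tested genes of the list overlapped. Il17rd, Ccnd1, Spred3, Dusp6, Spry4 and Myc were named after their values were seen. Of the list's 18 differences 9 were positive, and the median was 0.04, beside -0.05 for all genes.

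Signals that act on Etv1 and Etv4, and genes of motor pools, formed a list of 26, of which 24 were tested. In the WT regions 8 were higher and 5 lower in motor neurons (limma), against 18.6% and 9.85% of all genes. Ret (also in the motor neuron marker list) and Gfra1, which together form the GDNF receptor, and Nrg1, a neuregulin made by motor neurons, were higher by a log2 difference of 5.37 ± 0.26, 4.08 ± 0.36 and 4.50 ± 0.34 (limma adjusted p = 9.02e-06, 6.8e-05 and 3.33e-05). The FGF receptors Fgfr2 and Fgfr3 and the neuregulin receptor Erbb4 were lower (-1.86 ± 0.28, -1.20 ± 0.27 and -1.17 ± 0.31, limma adjusted p = 0.00114, 0.00936 and 0.0203). Between SMA and WT, 0 of 24 passed by limma in motor neurons, with 1 at an unadjusted p under 0.05, against 4.37% of all genes, and 0 in white matter, with 3, against 6.31%. The median differences were -0.19 in motor neurons and 0.35 in white matter, beside -0.05 and 0.27 for all genes.

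Across the 8 libraries, the genes whose log2(RPKM + 1) followed Etv1 most closely were Sil1 (Pearson r = 0.9404), Atg10 (0.9367), Mef2a (0.9329), Palld (0.9247) and Cdc16 (0.9214). Sil1, a nucleotide exchange factor of the endoplasmic reticulum, had 2.28 and 1.45 RPKM in SMA motor neurons, 5.13 and 4.99 RPKM in WT motor neurons, 4.02 and 4.23 RPKM in SMA white matter and 3.60 and 3.50 RPKM in WT white matter, the same order of groups by mean as Etv1. The closest genes were Anp32e, Col4a5 and Slc4a4 for Etv6 (r = 0.9953, 0.9949 and 0.9918). They were Rgnef, Ccnd3 and Itpr1 for Elk3 (r = 0.9941, 0.9941 and 0.9932), Slc4a4, Plxdc2 and Pdcd4 for Gabpa (r = 0.9978, 0.9976 and 0.9967), and Lass5, Prss50 and Npc2 for Etv5 (r = 0.9896, 0.9881 and 0.9819). Prss50 was near the floor, with 0.252 and 0 RPKM in SMA motor neurons and 0 RPKM in both WT motor neuron libraries. It reached 1 RPKM only in SMA white matter (1.24 and 1.28 RPKM), where Etv5 was also highest, and passed the filter through that group.

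Among the members, Etv6 and Gabpa were closest (r = 0.985), followed by Etv5 with Etv6 (0.945), Elk3 with Etv6 (0.925) and Elk3 with Etv5 (0.913). Etv1 correlated with no other member above 0.231 (Ets2), and with Etv4 at -0.354. These values describe 8 libraries that share their groups, their depth and the split between regions, so that genes differing between regions tend to correlate, and no test was made.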

How the data were processed

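Total RNA from laser-captured ventral horn motor neurons and white matter was sequenced in 8 libraries. The authors deposited, for each library, RPKM values listed by gene symbol. Per the labels' protocols, cDNA came from the NuGEN Ovation kit and libraries from the NuGEN Encore kit. TopHat, bedtools, DESeq and the mm9 genome are named per the submitters' processing notes. Their versions, the annotation, how reads were counted and whether strand was used is not given in the sources used here. Overlapping genes are therefore uncertain, and an RPKM value depends on the share of a library that its most abundant RNAs take.

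Reads were worked out from the RPKM steps. Of 17431 genes above 0 in 3 libraries or more, 17429 had a length that turned each value into a whole read number, with a tolerance of 0.02 reads, and for 93.6% of 420 small RNA genes this was the RefSeq length. The 2 genes with more than 1000000 reads in a library were left out of voom and of the recovered sums of 43.3 to 66.8 M reads, because the deposited digits cannot fix so large a whole number. Read numbers give counting error only.

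A limma model of 4 group means was fitted to log2(RPKM + 1) of all 8 libraries, with eBayes and trend, for the 13948 of 23278 genes with at least 1 RPKM in at least 2 libraries. It gave 6 contrasts: the genotypes within each region, their mean, their difference (interaction), and the regions within each genotype. The p-values were two-sided, with Benjamini-Hochberg adjustment over all genes tested and a threshold of 0.05. An exact permutation test of 2 libraries against 2 cannot go below p = 0.333 and was not used. R 4.3.3, limma 3.58.1, Python 3.11.15, numpy 2.4.6, pandas 2.3.3 and matplotlib 3.10.9 were used, and the model and the read recovery were tested on simulated data.

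The rule for named genes took all 10 members, other ETS genes that passed the filter, up to 3 higher and 3 lower genes per list with the smallest p in the WT regions, the 5 genes most correlated with Etv1 and the 3 most correlated with each other member that passed between regions, and Smn1. The members and lists were chosen with earlier results of these data known, and Etv1 is known from published work on these samples. Alternatives were another pseudocount (0.1), no filter and a stricter filter (4 libraries), median-of-ratios and quantile scaling, no trend, a replicate block, voom, a fit of the compared libraries alone and leaving out each library.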

Additional observations from a re-analysis of the deposited data

Results flagged for a closer look

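Etv1 was marked because its SMA against WT difference ran in opposite directions in the 2 regions, with no overlap between genotypes in either. That pattern held for 6.19% of all genes tested. Etv1 had 2.09 and 1.35 RPKM in SMA motor neurons, against 7.83 and 7.25 RPKM in WT motor neurons. In SMA white matter it had 6.23 and 4.52 RPKM, against 2.84 and 4.33 RPKM in WT white matter. The difference between the SMA effects in motor neurons and white matter was -2.14 on the log2(RPKM + 1) scale. Its limma test did not pass after adjustment (adjusted p = 0.883, unadjusted p = 0.00163), and over 16 alternatives the value lay between -2.68 and -1.72, with adjusted p from 0.0837 to 1. The white matter side was the smaller one and was 0.21 with median-of-ratios scaling, and with that scaling the interaction was -1.85.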

How the results depend on the processing

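Of the recomputed differences of single members, 912 kept their direction and their side of the threshold, 28 were no longer past it, 8 came past it and 52 changed sign. None of those 52 was past the threshold as reported, 2 exceeded their SE, and 34 came from leaving out 1 library. The cause of these changes was not tested. For the 4 comparisons of SMA with WT, 0 members passed under every alternative, the replicate block included. In WT regions 3 members passed, against 5 with quantile normalization, 5 with voom and 0 to 4 with 1 library left out. In SMA regions 5 passed, against 2 in a fit of the 4 SMA libraries alone and 1 to 5 with 1 library left out. With the replicate block 3 and 5 passed. Over all genes, 4330 were called in WT regions with quantile normalization and 4408 with voom. The number of all genes called fell in WT regions when any WT library was left out. In SMA regions it fell when either SMA white matter library was left out. Deviations of same-numbered libraries correlated at 0.0123 to 0.0742 in the 4 pairs of groups compared and at -0.343 to 0.0805 over all 6 pairs. The labels do not say what a number shares, but Xist and Ddx3y separated replicate 1 from replicate 2 in every group, so the replicate block also takes up that split.

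In white matter, Etv3 was 0.000513 with a pseudocount of 0.1. With median-of-ratios scaling, quantile normalization and voom, Etv4 was -0.27, -0.29 and -0.33 there, and Gabpa -0.029, -0.036 and -0.078. For the interaction under the same 3 settings, Etv3 was 0.19, 0.27 and 0.24, Etv6 0.019, 0.037 and 0.097, and Gabpa 0.12, 0.15 and 0.20, while Elk3 was 0.028 with voom. Elk1 between SMA regions was -0.031 with voom.

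With 1 library left out, SMA against WT motor neurons ranged from -0.19 to 0.37 for Elk1, -0.078 to 0.53 for Ets1, -0.31 to 0.37 for Ets2, -0.40 to 0.17 for Etv3, -0.22 to 0.41 for Etv5, -0.25 to 0.65 for Etv6 and -0.41 to 0.54 for Gabpa. In white matter the ranges were -0.44 to 0.072 for Elk1, -0.52 to 0.49 for Etv3 and -0.15 to 0.22 for Etv4. Over both regions they were -0.19 to 0.092 for Elk1, -0.32 to 0.19 for Etv3 and -0.061 to 0.41 for Gabpa. For the interaction they were -0.000067 to 0.55 for Elk1, -0.60 to 0.41 for Etv3, -0.78 to 0.12 for Etv6 and -0.69 to 0.25 for Gabpa. Between SMA regions they were -0.27 to 0.29 for Elk1, -0.25 to 0.43 for Ets2 and -0.47 to 0.024 for Etv4, and between WT regions -0.93 to 0.080 for Etv3. With 1 library left out, the lone library of its group is assumed to vary like the others. Each member had at least 422 reads in every library, and each group had 2 libraries.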
